A study of Mus musculus with 4 samples.

Results

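The SLC25 family, whose genes are named Slc25a and a number, encodes the carriers that move metabolites across the inner mitochondrial membrane. On the arrays of gonadal white adipose tissue (WAT) of FSP27-deficient mice it was read by 65 of 22690 probe sets, those annotated with 1 gene symbol that starts with Slc25a. They stand for 33 of 12394 genes, and the uncoupling proteins, named Ucp, were left out by that rule although they belong to the same protein family. RNA from 5 male Fsp27 knockout mice, of strain C57BL/6J and 3 months old, was pooled and hybridised to 2 Affymetrix arrays. RNA from 5 wild-type males of the same strain and age was pooled in the same way for the other 2 arrays. The arrays of a genotype are thus repeat hybridizations of 1 pool, and p-values measure the spread between arrays and not that between mice. The sources used here give neither the deleted part of Fsp27 nor whether the deletion is limited to some cells, and the tissue holds adipocytes together with blood vessel, connective tissue and immune cells. In such bulk RNA, fewer cells of a type and less RNA per cell cannot be told apart.

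White adipocytes store triacylglycerol in a single large lipid droplet and hold few mitochondria, while brown adipocytes hold many and burn fatty acids. The inner mitochondrial membrane lets few solutes through, so that each class of metabolite needs its carrier. ADP and phosphate must enter for ATP synthesis, acylcarnitines must enter for fatty acid oxidation, and citrate, malate, oxoglutarate and amino acids cross in exchange for each other. Most SLC25 proteins share a fold of membrane helices built from a repeated unit and differ in the substrate they bind.

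Carriers of ADP/ATP and phosphate (3 of 3 tested), dicarboxylates (2 of 2), glutamate (1 of 1) and acylcarnitine (1 of 1) were higher in FSP27-deficient WAT, by 1.56-fold (Slc25a3) to 2.79-fold (Slc25a20). So were 1 of 3 carriers of ATP-Mg and phosphate and 2 of 6 carriers of cofactors and nucleotides. Of 4 carriers of glycine, glutathione and iron, 1 was higher, the glutathione carrier Slc25a39. Slc25a35, for which no substrate is given here, was higher as well. Carriers of iron, glycine, basic amino acids and S-adenosylmethionine did not pass the test. Signals are those of the Affymetrix GeneChip Operating Software (GCOS), on a linear scale. Each gene was read from its probe set with the highest mean signal, and the 28 members whose signal averaged 100 or more over the 4 arrays were tested. The test was limma on log2(signal + 16) over 8523 genes with Benjamini-Hochberg adjustment, and its fold changes are on that scale, which understates the change of dim genes. The value after ± is the standard error of the fold change. With an adjusted p under 0.05 as the threshold, 12 of the 28 members were called higher (42.9%) and 0 lower, while limma called 5.78% of genes higher and 6.51% lower in the whole table. The log2 fold change was above 0 in 19 of the 28 members and in 43.1% of all genes, and its median was 0.28 over the family and -0.08 over all genes tested.

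In 14 of the 28 members the FSP27-deficient arrays were both above the wild-type ones, as they were for 22.7% of all genes, and in 5 members they were both below, as they were for 31.4% of all genes. By the study's fold criterion, computed here as mean signals that differ by the square root of 2, rounded to 2 decimals, or more, and the same way in same-numbered arrays, 12 members were higher and 2 lower, against 14.5% and 20.8% of all genes. The 12 were the genes that limma called, and the 2 were Slc25a24 and Slc25a30. Centring each array on its median over the 12394 genes moved the median of all genes from -0.08 to 0.06 and that of the family to 0.43, a shift that is the same for every gene. The median of the family was 0.37 above that of all genes in the data as deposited, 0.28 after quantile normalization, 0.24 over the mean of probe sets, 0.54 with a mean signal of at least 200 and 0.42 to 0.51 with an array left out. It also moved the whole table's calls from 493 higher and 555 lower (47.0% higher) to 593 higher and 354 lower (62.6% higher), and left the family at 12 higher and 0 lower. Centring on the median of all probe sets, chosen after seeing the data, gave 460 higher and 408 lower in the whole table (53.0% higher) and 11 higher and 0 lower in the family, without Slc25a4. The calls rest on letting limma's spread depend on the signal. Without that, limma called 0 members, with 13 of 28 at an unadjusted p under 0.05, and the methods' t-test with Benjamini-Hochberg adjustment called 0, with 12 at an unadjusted p under 0.05.

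Markers of several cell types were called in larger shares than the 5.78% higher and 6.51% lower of the whole table. Among them were brown adipocytes, macrophages, fibroblasts, mesothelial cells, and granulocytes and lymphocytes. Cidec, which encodes FSP27, gave 8564 and 8949 in FSP27-deficient WAT, against 20491 and 18255 in wild-type WAT (log2 fold change of -1.14, adjusted p = 0.00057), and the sources used here do not say whether its probe set lies in the deleted part. The adipocyte markers marked both pools, with summed signals of 196669 and 209534 in FSP27-deficient WAT, against 173237 and 189777 in wild-type WAT, and 1 of 8 was called higher and 2 lower. The targeted gene Cidec was among the 8 and was 1 of the 2 called lower, and its signal is part of these sums. The other lower one was Lep (log2 fold change of -1.33, adjusted p = 0.00088 from limma). Brown adipocyte markers summed to 20374 and 24802 in FSP27-deficient WAT, against 1649 and 1140 in wild-type WAT, with 5 of 6 tested called higher. Most of the sum in FSP27-deficient WAT was Cox8b, a subunit of cytochrome c oxidase, at 13491 and 19539 in FSP27-deficient WAT, against 451 and 374 in wild-type WAT. Ppargc1a, the 1 tested marker not called, overlapped at 209 and 161 in FSP27-deficient WAT, against 205 and 110.3 in wild-type WAT. Of the 3 not tested, Ucp1, the uncoupling protein that defines brown adipocytes, gave 157 and 31.3 in FSP27-deficient WAT, against 18.9 and 12.9 in wild-type WAT, and the brown fat lineage genes Zic1 and Lhx8 were below the mean signal of 100 as well. Skeletal muscle markers summed to 1356 and 1315 in FSP27-deficient WAT, against 1380 and 1129 in wild-type WAT, with 9 of 12 below 100 and 0 of the 3 tested called. Macrophage markers summed to 6982 and 8354 in FSP27-deficient WAT, against 18998 and 17501 in wild-type WAT, with 6 of 9 tested called lower. Fibroblast markers had 4 of 7 and mesothelial markers 3 of 6 tested genes called lower, endothelial markers 1 of 7, and epididymis and testis markers 0 of 3 called. Granulocyte and lymphocyte markers had 2 of 5 tested genes called lower, while the log2 fold change was above 0 in 3. The part of these shifts in the values of the Slc25a genes was not tested. The median signal was 181.1 and 164.8 in FSP27-deficient WAT, against 192.8 and 172.4 in wild-type WAT.

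The called members were among the brighter ones. With a mean signal of at least 1000, 9 of 11 members were higher, against 17.7% of all genes of that brightness, and the standard errors of these members were 0.15 to 0.20 on the log2 scale. From 500 to 1000, 3 of 7 members were higher, against 3.99% of all genes there. Below 500, 0 of 10 members were called, against 1.08% of all genes higher, with standard errors of 0.24 to 0.44.

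**Figure D1:**
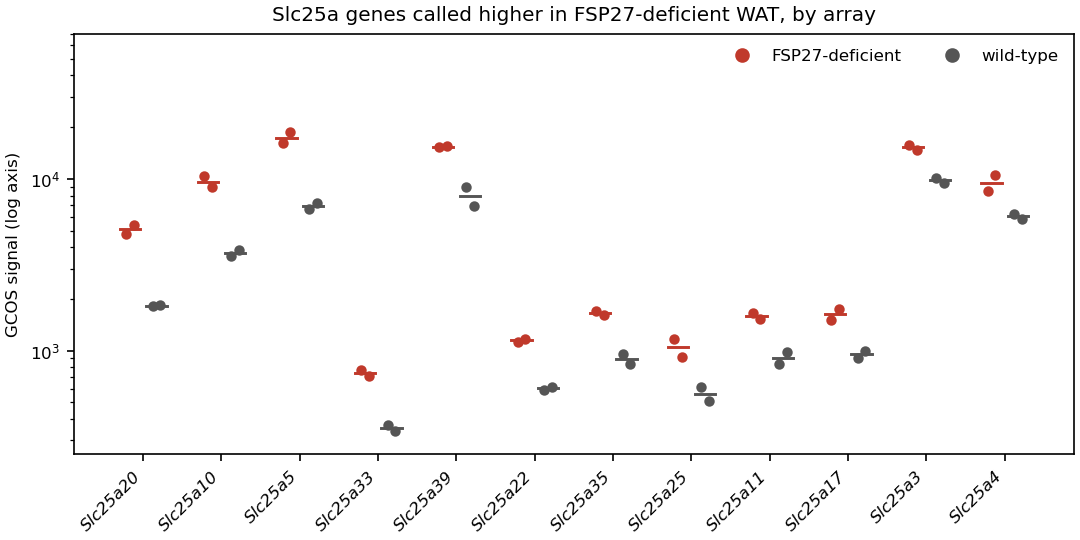
GCOS signal on a log axis for the 12 Slc25a genes called higher, ordered by log2 fold change, where each dot is 1 array and each line the mean of a genotype (red, FSP27-deficient WAT, and grey, wild-type WAT). In each of the 12 genes both FSP27-deficient dots lie above both wild-type dots, from Slc25a20 with a mean 2.79-fold higher to Slc25a4 with a mean 1.57-fold higher.

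Most of the calls needed both wild-type arrays. In fits without 1 array, the array that is left of that genotype is taken to vary as the other pair does. Without wild-type replicate 1 limma called 4 members higher (2.53% of all genes), which were Slc25a20, Slc25a10, Slc25a5 and Slc25a39. Without wild-type replicate 2 it called 3 of these, Slc25a20, Slc25a10 and Slc25a5 (3.17% of all genes). The fold changes of the 12 stayed positive when any of the 4 arrays was left out, between 0.49 (Slc25a4, without FSP27-deficient replicate 2) and 1.55 (Slc25a20, without FSP27-deficient replicate 1).

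The sequences before the transcription starts of the 4 members called without wild-type replicate 1 are shown because they kept their calls there. Each is the 250 bases before the start in RefSeq, build GRCm38.p6, written 5′ to 3′ along the gene, with capitals at the motifs found. Slc25a20 lies at chr9:108661886-108662135 on the plus strand, Slc25a10 at chr11:120491587-120491836 on the plus strand, Slc25a5 at chrX:36795347-36795596 on the plus strand and Slc25a39 at chr11:102407518-102407767 on the minus strand. The start used for Slc25a39 is 1 of several in RefSeq and lies inside the span of the gene.
Slc25a20: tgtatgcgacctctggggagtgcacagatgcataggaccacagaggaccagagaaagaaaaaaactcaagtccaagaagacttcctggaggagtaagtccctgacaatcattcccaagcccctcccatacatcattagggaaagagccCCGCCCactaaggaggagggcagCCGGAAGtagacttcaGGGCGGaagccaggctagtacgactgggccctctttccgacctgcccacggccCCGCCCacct
Slc25a10: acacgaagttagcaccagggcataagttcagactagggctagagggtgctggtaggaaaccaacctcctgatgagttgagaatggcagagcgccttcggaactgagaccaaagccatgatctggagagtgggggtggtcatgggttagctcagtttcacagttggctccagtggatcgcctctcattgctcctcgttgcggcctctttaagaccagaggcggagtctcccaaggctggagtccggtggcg
Slc25a5: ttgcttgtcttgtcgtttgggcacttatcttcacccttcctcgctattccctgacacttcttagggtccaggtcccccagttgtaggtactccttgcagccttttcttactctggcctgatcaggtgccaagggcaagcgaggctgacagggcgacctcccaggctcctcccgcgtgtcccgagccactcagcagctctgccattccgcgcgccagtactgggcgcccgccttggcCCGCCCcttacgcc
Slc25a39: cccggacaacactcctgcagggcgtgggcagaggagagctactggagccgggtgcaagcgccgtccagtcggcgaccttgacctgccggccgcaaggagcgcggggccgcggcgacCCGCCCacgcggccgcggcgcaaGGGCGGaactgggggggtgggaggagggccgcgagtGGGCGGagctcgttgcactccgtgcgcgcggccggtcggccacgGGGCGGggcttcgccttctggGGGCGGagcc
The GC content of these windows was 56.8% for Slc25a20, 56.0% for Slc25a10, 61.6% for Slc25a5 and 77.2% for Slc25a39, against a median of 52.4% over 32851 RefSeq windows of the same length. On both strands 9 motifs were searched, chosen after the members' values were seen. The GC box GGGCGG, bound by Sp1, occurred 3 times for Slc25a20, 1 time for Slc25a5 and 5 times for Slc25a39, and the ETS motif CCGGAAG, bound by GABP, occurred 1 time, for Slc25a20. None of the motifs was found in the window of Slc25a10.

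Of the 12 members called higher 11 had such a window, some for more than 1 start, as did 11 of the 16 tested members not called. A gene was counted where any of its windows held the motif, also over all 27025 genes with a window. The ETS motif was in 4 of the 11 called members (Slc25a3, Slc25a4, Slc25a17 and Slc25a20), in 1 of the 11 others (Slc25a38) and in 7.83% of all genes. The GC box was in 9 of 11 and in 9 of 11, and in 35.4% of all genes. CCAAT, bound by NF-Y, was in 6 of 11 and in 7 of 11, and in 37.5% of all genes. The cyclic AMP response element TGACGTCA was in the windows of Slc25a25 and Slc25a36 and in 1.77% of all genes, and the E box CACGTG was in 1 of 11 and in 2 of 11, and in 6.86% of all genes. The letters TATAAA (14.3% of all genes), the PPAR direct repeat of AGGTCA with 1 base between (0.0407%), the ERR motif TNAAGGTCA (1.30%), which can overlap that repeat, and the NRF1 palindrome of GCGCA and TGCGC (0.877%) were in no window of these 22 genes. A match is a run of letters and not a measured binding site.

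Slc25a20 encodes the carnitine/acylcarnitine carrier, which brings acylcarnitines into the matrix for β-oxidation and takes carnitine out. Its signal was 4802 and 5398 in FSP27-deficient WAT, against 1820 and 1839 in wild-type WAT, with the genotypes far apart and the duplicates close. It had the highest log2 fold change of the 28 members (1.47 ± 0.17, adjusted p = 0.000253 from limma). Its other probe set, of the kind whose probes match several transcripts, gave 2592 and 2667 in FSP27-deficient WAT, against 561 and 421 in wild-type WAT (log2 fold change 2.40 ± 0.21, adjusted p = 4.3e-05 over all probe sets). The probe sets thus went the same way with different sizes.

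Both dicarboxylate carriers rose. Slc25a10, which exchanges malate or succinate for phosphate, gave 10336 and 8937 in FSP27-deficient WAT, against 3541 and 3856 in wild-type WAT. It was 2.61-fold higher (log2 fold change 1.38 ± 0.17, adjusted p = 0.000276), and its other probe set gave 1.45. Slc25a11, the oxoglutarate/malate carrier of the malate-aspartate shuttle, gave 1652 and 1536 in FSP27-deficient WAT, against 833 and 983 in wild-type WAT. It was 1.76-fold higher, with the genotypes apart (log2 fold change 0.80 ± 0.20, adjusted p = 0.020). Its adjusted p from limma was 0.051 without FSP27-deficient replicate 1, 0.20 without wild-type replicate 1 and 0.070 without wild-type replicate 2. The citrate carrier Slc25a1 and the oxodicarboxylate carrier Slc25a21 were not analysed here.

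The ADP/ATP carriers, also named adenine nucleotide translocators, bring ADP into the matrix and let ATP out, and Slc25a3 brings in the phosphate. Slc25a5 gave signals of 16100 and 18636 in FSP27-deficient WAT, against 6636 and 7281 in wild-type WAT. This was 2.50-fold higher (log2 fold change 1.32 ± 0.16, adjusted p = 0.000276). Slc25a4, the isoform best known from heart and skeletal muscle, gave 8514 and 10513 in FSP27-deficient WAT, against 6284 and 5862 in wild-type WAT, also without overlap. It was 1.57-fold higher (log2 fold change 0.64 ± 0.17, adjusted p = 0.026). The call was lost when any of 3 arrays was left out, with an adjusted p of 0.069 without FSP27-deficient replicate 2, 0.13 without wild-type replicate 1 and 0.20 without wild-type replicate 2. Slc25a3 gave 15838 and 14802 in FSP27-deficient WAT, against 10161 and 9500.2 in wild-type WAT, which was 1.56-fold higher (log2 fold change 0.64 ± 0.15, adjusted p = 0.016). Whether Slc25a5 rose more than Slc25a4 was not tested.

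The probe sets of Slc25a5 agreed in direction and those of Slc25a4 did not all pass. For Slc25a5 the 8 probe sets had log2 fold changes of 0.69 to 1.52, both FSP27-deficient arrays were above both wild-type arrays in each, and 6 were called higher over all probe sets. For Slc25a4 the 3 tested probe sets had 0.64, 0.41 (adjusted p = 0.16) and 0.10 (adjusted p = 0.78), and 1 more was too dim to test, at 37.9 and 14.8 in FSP27-deficient WAT, against 58.2 and 24.7 in wild-type WAT. The call of Slc25a4 was lost over the mean of its probe sets (log2 fold change of 0.18, adjusted p = 0.59), and the calls of Slc25a4 and Slc25a3 were lost after quantile normalization (0.36, adjusted p = 0.18, and 0.40, adjusted p = 0.11) and without the filter on low signals (adjusted p = 0.077 and 0.089). The ADP/ATP carriers are close paralogs, and 6 of the 8 Slc25a5 probe sets and 1 of the 4 of Slc25a4 are of the kind in which some probes can match other sequences. The share of signal from paralogs was not tested.

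The ATP-Mg/phosphate carriers, which adjust the adenine nucleotide pool of the matrix and respond to calcium, had 1 of 3 members called higher. Slc25a25 gave 1169 and 917 in FSP27-deficient WAT, against 613 and 509 in wild-type WAT. It was 1.86-fold higher (log2 fold change 0.87 ± 0.23, adjusted p = 0.025). The adjusted p from limma came to 0.098 without FSP27-deficient replicate 1, 0.080 without wild-type replicate 1 and 0.20 without wild-type replicate 2. Slc25a23, at 667 and 410 in FSP27-deficient WAT, against 617 and 399 in wild-type WAT, overlapped between genotypes (log2 fold change of 0.07, adjusted p = 0.91). Slc25a24 gave 125 and 133 in FSP27-deficient WAT, against 233 and 209 in wild-type WAT. Its genotypes did not overlap, but its log2 fold change of -0.71 had a standard error of 0.40 and an adjusted p of 0.31 from limma.

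Slc25a22, a glutamate carrier, gave 1124 and 1168 in FSP27-deficient WAT, against 593 and 617 in wild-type WAT. It was 1.89-fold higher, with duplicates closer to each other than to any array of the other genotype (log2 fold change 0.90 ± 0.21, adjusted p = 0.013). The aspartate/glutamate carrier Slc25a13 was too dim to test, at 136 and 67.7 in FSP27-deficient WAT, against 77.7 and 18.3 in wild-type WAT, and its paralog Slc25a12 was not analysed here.

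**Figure D2:**
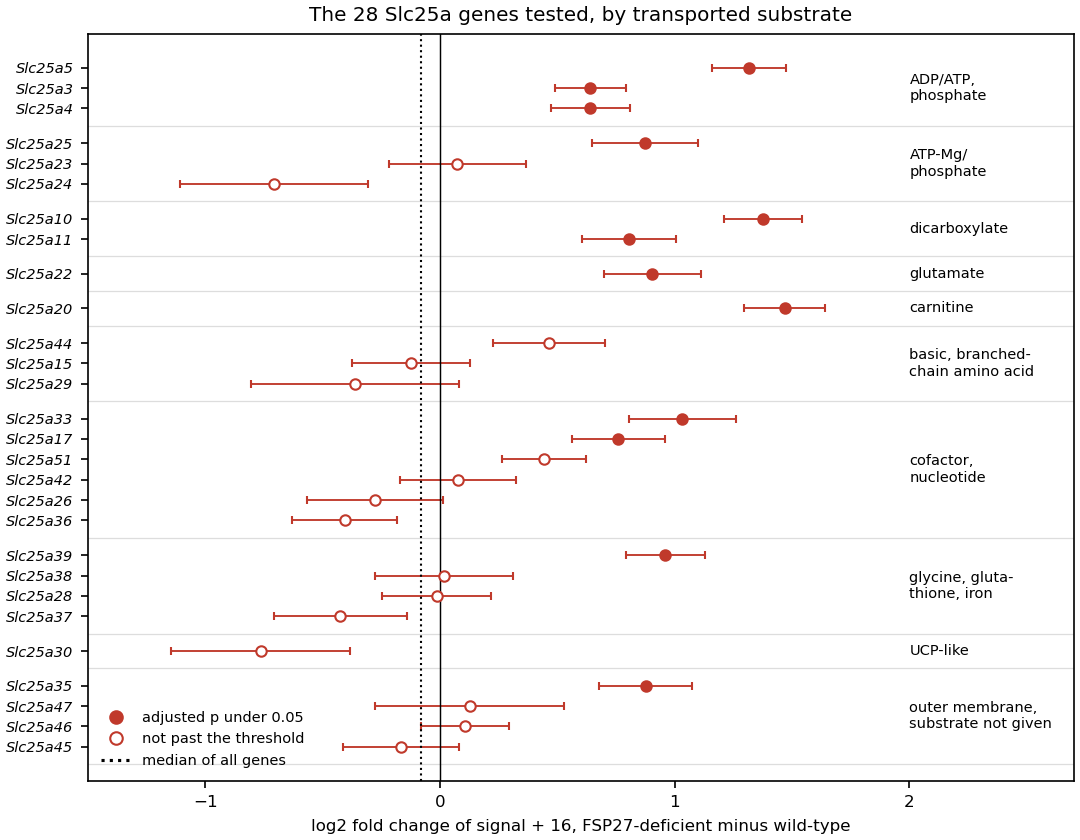
Difference in log2(signal + 16), FSP27-deficient minus wild-type WAT, for the 28 Slc25a genes tested, grouped by the substrate they carry, with bars of 1 standard error. Filled points passed an adjusted p of 0.05, open ones did not, and the dotted line marks the median over all genes, -0.08. The filled points run from 0.64 (Slc25a3 and Slc25a4) to 1.47 (Slc25a20), and the open points from -0.77 (Slc25a30) to 0.46 (Slc25a44).

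Among carriers of basic and branched-chain amino acids none passed the test. Slc25a44, which carries branched-chain amino acids and is known from brown fat, gave 547 and 489 in FSP27-deficient WAT, against 363 and 379 in wild-type WAT. Its arrays did not overlap (log2 fold change 0.46 ± 0.24, adjusted p = 0.25), and its other probe sets gave 0.88 (adjusted p = 0.15) and 0.49 (adjusted p = 0.57). The ornithine carrier Slc25a15 gave 393 and 467 in FSP27-deficient WAT, against 537 and 408 in wild-type WAT (log2 fold change of -0.12, adjusted p = 0.82). The basic amino acid carrier Slc25a29 gave 373 and 129 in FSP27-deficient WAT, against 380.2 and 220 in wild-type WAT by its brightest probe set (log2 fold change of -0.36, adjusted p = 0.67). Another of its 5 probe sets gave 280 and 107 in FSP27-deficient WAT, against 41.3 and 23.4 in wild-type WAT, without overlap and the other way (log2 fold change 2.01 ± 0.85, adjusted p = 0.17), so that no direction can be given. The ornithine carrier Slc25a2 was too dim to test, with a mean signal of 75.8.

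Carriers of cofactors and nucleotides were split. Slc25a33, a pyrimidine nucleotide carrier, gave 773 and 711 in FSP27-deficient WAT, against 368 and 341 in wild-type WAT. It was 2.09-fold higher (log2 fold change 1.03 ± 0.23, adjusted p = 0.011). Its relative Slc25a36, also a pyrimidine nucleotide carrier, gave 521 and 628 in FSP27-deficient WAT, against 720 and 810 in wild-type WAT. There both FSP27-deficient arrays were the lower ones, without passing the test (log2 fold change -0.41 ± 0.22, adjusted p = 0.29). The other probe set of Slc25a36 overlapped between genotypes, at 271 and 166 in FSP27-deficient WAT, against 266 and 229 in wild-type WAT (-0.20, adjusted p = 0.79). The difference between the 2 genes was not tested.

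Slc25a17, a cofactor carrier of the peroxisome rather than the mitochondrion, gave 1513 and 1753 in FSP27-deficient WAT, against 911 and 1002 in wild-type WAT. It was 1.71-fold higher (log2 fold change 0.76 ± 0.20, adjusted p = 0.025). The adjusted p from limma came to 0.071 without FSP27-deficient replicate 2, 0.20 without wild-type replicate 1 and 0.11 without wild-type replicate 2. Its other probe set was too dim to test, with a mean signal of 28.4, and over the mean of both the log2 fold change was 0.12 (adjusted p = 0.89). Slc25a51, which carries NAD, gave 3014 and 3634 in FSP27-deficient WAT, against 2455 and 2407 in wild-type WAT, without overlap (log2 fold change 0.44 ± 0.18, adjusted p = 0.14). A second probe set of Slc25a51 gave 1501 and 1004 in FSP27-deficient WAT, against 595 and 600.3 in wild-type WAT and was called higher over all probe sets (log2 fold change of 1.02, adjusted p = 0.015), and the other gave 0.13 (adjusted p = 0.90). The coenzyme A carrier Slc25a42 (0.08, adjusted p = 0.89) and the S-adenosylmethionine carrier Slc25a26 (-0.28, adjusted p = 0.61) overlapped between genotypes.

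Slc25a39, the carrier that supplies mitochondria with glutathione, was 1.93-fold higher by its brightest probe set. That probe set is of the kind in which some probes can match other sequences, a share that was not tested. The mean signal was 11661 there, against 2643 and 2064 in the others. Slc25a39 gave 15261 and 15477 in FSP27-deficient WAT, against 8956 and 6951 in wild-type WAT, where the wild-type arrays differed more from each other than the FSP27-deficient ones (log2 fold change 0.96 ± 0.17, adjusted p = 0.0031). Its other probe sets were called higher too, with 1.10 and 1.30, and without wild-type replicate 2 its adjusted p was 0.059. The glycine carrier Slc25a38, needed for heme synthesis, had 0.02 (adjusted p = 0.98). The iron carriers Slc25a28 (mitoferrin 2) and Slc25a37 (mitoferrin 1) had -0.01 (adjusted p = 0.98) and -0.43 (adjusted p = 0.39). Slc25a37 gave 319 and 240.4 in FSP27-deficient WAT, against 331 and 429 in wild-type WAT, without overlap but with the nearest arrays of the genotypes close.

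Of the members left, Slc25a35, for which no substrate is given here, was called higher. It gave 1695 and 1609 in FSP27-deficient WAT, against 949.95 and 839 in wild-type WAT, 1.85-fold higher (log2 fold change 0.88 ± 0.20, adjusted p = 0.012). Slc25a46, an outer membrane protein that shapes mitochondria, had 0.11 (adjusted p = 0.78), Slc25a47 had 0.13 (adjusted p = 0.89) and Slc25a45 had -0.17 (adjusted p = 0.73). Of the relatives of the uncoupling proteins none passed the test by its brightest probe set. Slc25a30 gave 119 and 274 in FSP27-deficient WAT, against 315 and 327 in wild-type WAT by its brightest probe set (log2 fold change -0.77 ± 0.38, adjusted p = 0.24). A second probe set gave 114 and 172 in FSP27-deficient WAT, against 364 and 315 in wild-type WAT and was the 1 probe set of the family called lower (log2 fold change of -1.18, adjusted p = 0.046), while another gave 0.38 (adjusted p = 0.68). Slc25a14, with a mean signal of 68.2, Slc25a48, with 22.9, and Slc25a53, with 51.5, were too dim to test.

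**Figure D3:**
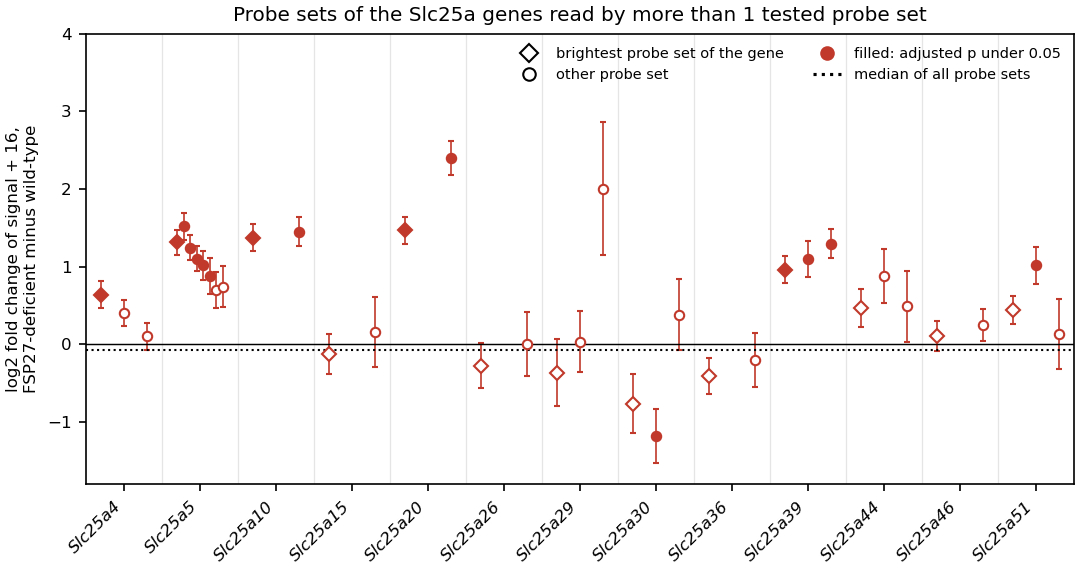
Difference in log2(signal + 16), FSP27-deficient minus wild-type WAT, for each tested probe set of the Slc25a genes read by more than 1 of them, with bars of 1 standard error (diamonds, the gene's brightest probe set, circles, its others, and filled, adjusted p under 0.05 over all probe sets). The dotted line marks the median of all probe sets. The 8 points of Slc25a5 lie between 0.69 and 1.52, while those of Slc25a30 lie on either side of 0, from -1.18 to 0.38.

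Counted by probe set, 22 of the 53 tested were called higher (41.5%) and 1 lower, against 5.06% and 5.59% of all 13225 probe sets tested. The 12 other probe sets of the family were below the mean signal of 100. Probe sets of 1 gene share the RNA and often overlap in sequence, so that these counts are not independent of those by gene.

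Enzymes that use the carried substrates were read from lists chosen with earlier results of these data known, and their counts stand beside 5.78% higher and 6.51% lower over all genes tested, or 17.7% higher and 11.4% lower over those with a mean signal of at least 1000. Of 17 genes of ATP synthase, which uses the ADP and phosphate, 11 were called higher (64.7%) and 1 lower, and the median of the list was 0.80 (log2 fold change). The subunits with the highest values were Atp5o (1.22), Atp5md (1.17) and Atp5d (1.03). The gene called lower was Atpif1, which encodes the inhibitor of ATP synthase, at 402 and 416 in FSP27-deficient WAT, against 829 and 837 in wild-type WAT (log2 fold change of -0.998, adjusted p = 0.011), named after its value was seen.

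Partners of the acylcarnitine and dicarboxylate carriers were higher in the main. The list of carnitine-dependent fatty acid entry also holds acyl-CoA dehydrogenases and Acacb, an acetyl-CoA carboxylase that the study places in fatty acid synthesis. Of its 9 genes 6 were called higher (66.7%, against 5.78% of all genes and 17.7% of the bright ones) and 0 lower. The median was 0.87. The called genes were led by the acyl-CoA dehydrogenases Acadvl (2.10) and Acadl (1.58) and by Cpt2 (1.89), which reforms acyl-CoA from what Slc25a20 brings in. The other called ones, named after their values were seen, were Acacb (1.11), Crat (0.87) and Acadm (0.78). Not called, and overlapping between genotypes, were Cpt1a (0.22, adjusted p = 0.64), Slc22a5 (0.38, adjusted p = 0.40) and Crot (-0.10, adjusted p = 0.84). Of 21 enzymes that make or use citrate and dicarboxylates 12 were higher (57.1%), with a median of 0.98, led by Cs (2.34), Idh3b (1.64) and Dlst (1.52). In that list 1 gene was lower, Acly, which splits citrate in the cytosol for lipid synthesis (-0.86, adjusted p = 0.0041, named after its value was seen).

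Of 8 genes in the list of the NADH shuttles, with a median of 0.32, 4 were higher and 1 was lower. The list also holds the lactate dehydrogenases Ldha and Ldhb, which are not enzymes of either shuttle. The higher ones were the malate dehydrogenases Mdh1 (1.12) and Mdh2 (1.26) and, named after their values were seen, Gpd1 (1.11) and Ldha (0.61). Not called were Gpd2 (0.005, adjusted p = 0.99 from limma), Got1 (-0.27, adjusted p = 0.70) and Ldhb (0.02, adjusted p = 0.98). The lower one was Got2, the mitochondrial aspartate aminotransferase of the malate-aspartate shuttle, at 592 and 625 in FSP27-deficient WAT, against 1952 and 1752 in wild-type WAT (log2 fold change of -1.58, adjusted p = 0.00038). Enzymes of glutamate, ornithine and proline had 2 of 11 tested genes higher, Glul (0.63) and Gpt (0.62), and 1 lower, the ornithine aminotransferase Oat (-1.14, adjusted p = 0.0049), with a median of 0.09. Over all genes tested 5.78% were higher and 6.51% lower.

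The breakdown of branched-chain amino acids had 13 of 19 genes higher and 0 lower, with a median of 0.79, among them the mitochondrial aminotransferase Bcat2 (1.44), Dld (1.09) and Pcca (1.02). Slc25a44, the carrier of these amino acids, stood at 0.46 without passing the test. Of 15 tested genes of heme and iron-sulfur cluster synthesis, 4 were higher and 0 lower, with a median of 0.39. They were Alas1, the first enzyme of heme synthesis (1.28), Urod (1.27), Hspa9 (0.77) and, named after its value was seen, Isca1 (0.60). Of 25 tested genes of cofactors and glutathione, 3 were higher (12.0%) and 1 lower, against 5.78% and 6.51% of all genes. The list holds the glutathione peroxidases Gpx1 and Gpx4 and the thiamine transporter Slc19a2 as well, none of them called. The median of that list was 0.34, against -0.08 for all genes. Its log2 fold changes were above 0 in 20 of 25 genes, against 43.1% of all genes. The higher ones were the serine hydroxymethyltransferase Shmt1 (2.02), Coasy, the last enzyme of coenzyme A synthesis (1.39), and, named after its value was seen, Ppcs (0.87). Shmt1 was dim, at 341 and 280 in FSP27-deficient WAT, against 115.4 and 33.3 in wild-type WAT (standard error of 0.54, adjusted p = 0.028). Its wild-type mean of 74.3 was below 100. The lower one was Nnt, the mitochondrial transhydrogenase, at 373 and 406 in FSP27-deficient WAT, against 1044 and 973 in wild-type WAT (log2 fold change of -1.34, adjusted p = 0.0021). Whether the pools differed in genetic background at Nnt was not tested.

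**Figure D4:**
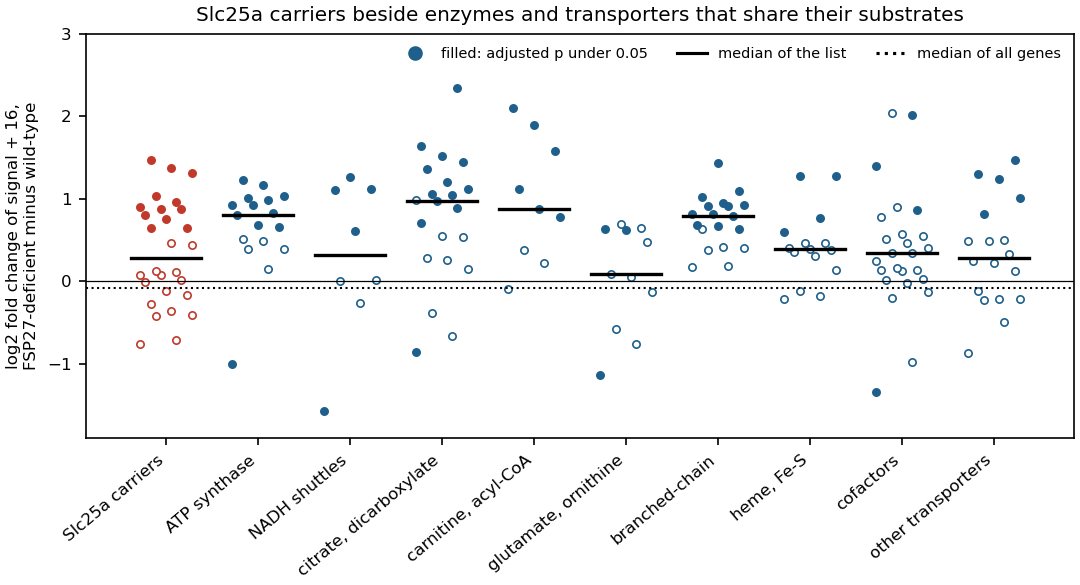
Difference in log2(signal + 16), FSP27-deficient minus wild-type WAT, of each tested gene of the Slc25a family (red) and of 9 lists of enzymes and transporters that share its substrates or membrane (blue), filled where the adjusted p is under 0.05. Bars are the medians of the lists, and the dotted line marks that of all genes, -0.08. The median of the Slc25a family is 0.28, and those of the ATP synthase and of the citrate and dicarboxylate lists are 0.80 and 0.98.

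Other transporters of mitochondria and peroxisomes had 5 of 18 tested genes higher (27.8%, against 5.78% of all genes and 17.7% of the bright ones) and 0 lower, with a median of 0.29, close to that of the Slc25a family. They were Letm1, a cation exchanger of the inner membrane (1.47), Ucp3 (1.30), the peroxisomal transporter Abcd3 (1.23) and, named after their values were seen, Mtch2, an outer membrane relative of the SLC25 proteins (1.004), and Mpc1, a subunit of the pyruvate carrier (0.82).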

How the data were processed

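The authors hybridised pooled gonadal WAT RNA of FSP27-deficient and wild-type mice to Affymetrix Mouse Genome 430 2.0A arrays, 2 a pool, and deposited intensities, the linear signals computed by the GeneChip Operating Software (GCOS). The sources used here name neither its version nor its scaling target. Precision is limited by the number of arrays. The SD of the log2 difference between duplicates was 0.64 for FSP27-deficient and 0.46 for wild-type WAT.

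Genes were named from the platform annotation. Of 22690 probe sets 20393 had 1 symbol, 691 had several and 1606 none, and the last 2 kinds were left out. RefSeq gave the same symbol for the Entrez identifiers of all 33 Slc25a genes, and 14 other Slc25a genes of RefSeq were not analysed here. In limma 3.58.1 (R 4.3.3), lmFit and eBayes with trend = TRUE were run on log2(signal + 16), FSP27-deficient minus wild-type, over the 8523 genes whose mean signal reached 100. Residual degrees of freedom were 2, or 12.1 when the prior is counted. With 2 arrays a genotype the smallest exact permutation p, two-sided, would be 0.333, so that none is given. The steps were run on simulated data whose spread was drawn from the fit itself. Such data cannot test whether the spread depends on the signal as fitted.

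The members, the lists, the tests and the alternatives were chosen with earlier results of these data known. Each called Slc25a gene was named with its values, uncalled ones where they share a substrate or have probe sets that disagree, and from each list up to 3 called genes with the largest change. Alternatives were a pseudocount of 1 or of 64, a minimum mean of 200 or none, quantile normalization, centring on the median, the mean or the highest of a gene's probe sets, eBayes without trend, the methods' t-test, a replicate block, leaving out each array and, for the fold criterion, its fold in every pair of arrays. Centring over all probe sets was added after seeing the data.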

Additional observations from a re-analysis of the deposited data

How the results depend on the processing

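The count of 12 Slc25a genes called higher was also found with pseudocounts of 1 and 64, a mean signal of at least 200, centring, the highest signal in each array and the replicate block. It was 11 after centring on all probe sets, and it was 10 without a filter, after quantile normalization and over the mean of probe sets. It was 0 without a trend on the signal, where limma called 1 gene of 8523 (1861 at an unadjusted p under 0.05), and 0 by the methods' t-test, which called 0 genes (1309 at an unadjusted p under 0.05). The cause was not tested. With each array left out in turn it was 3 to 10 higher and 0 to 1 lower, the lower one being Slc25a30 without FSP27-deficient replicate 2. The called probe sets, 23 in all, were then 14 (without wild-type replicate 2) to 25, the members past the fold criterion, 14 in all, were 16 to 17, and the family's median, 0.28, was 0.32 to 0.43. That median was 0.45 with a mean signal of at least 200, 0.43 after centring and 0.18 over the mean of probe sets, and the cause was not tested. Of 192 alternative values of the 12 called genes 140 stayed past the threshold, 52 did not and 0 changed sign. Same-numbered arrays of the genotypes did not deviate together (correlation of 0.065), so that the numbers were not taken as pairs. With the replicate block 12 members were higher and 0 lower, and 635 genes were higher and 831 lower in the whole table. The filter of 100 left 5 dim members untested.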
